A study of Mus musculus with 4 samples.

Results

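The genes described here carry glucose into the cell, break it down to pyruvate and lactate, and feed the pentose phosphate pathway. They are 41 genes listed by function, and each was read from the probe set with the highest mean among those annotated with its symbol alone. Of the 41, 35 had such a probe set, out of 22180 genes measured in all. Gpi1, Aldoa, Pfkfb1, Eno1, G6pdx and Tkt had none and were not analysed here. Aldoa and Tkt each had 1 probe set that is shared with the symbol of another gene, which was not used.

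The samples were brown adipose tissue of male C57BL/6 mice aged 4 months on a chow diet, with 2 wild-type samples and 2 samples from Tsku knockout mice. Tsku encodes tsukushi, a secreted leucine-rich proteoglycan. The labels do not say whether the knockout was limited to a tissue, and Tsku had no probe set of its own, so the genotypes rest on the labels. They name the samples biological replicates without saying that each came from a separate mouse, so the variation between them may be technical. The p-values reflect only the variation among these samples, which limma estimates for each gene partly from all genes. A pair of arrays that lies close together therefore does not narrow the interval to match. Each value below is the deposited log2 signal of a probe set, and each difference is knockout minus wild type on the log2 scale with a 95% interval from limma. Signals of different probe sets are not compared with each other, since probe sets respond differently to the same amount of RNA.

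Brown adipocytes take up glucose through GLUT4, which insulin brings to the cell surface, and through GLUT1, which does not need insulin. Hexokinase traps the sugar as glucose 6-phosphate. Glycolysis carries it to pyruvate, which enters the mitochondria or leaves the cell as lactate, and the pentose phosphate pathway diverts it to make NADPH, the reducing power for fatty acid synthesis, and ribose for nucleotides. Brown fat is known for high glucose uptake when it is stimulated by cold or by insulin.

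No gene of these pathways could be called different between the genotypes. None of the 35 genes passed an adjusted p of 0.05 in limma, where 0 of 22180 genes (0.00%) did, and the smallest adjusted p among the 35 was 0.872. None had an unadjusted p under 0.05 either, against 1234 genes (5.56%) of all those tested. The differences ran from -0.40 for Pfkfb4 to 0.69 for Fbp2, with a median of 0.06, and 22 genes were higher and 13 lower in the knockout. Over all genes the median was 0.02 and 52.6% were higher. The 95% interval lay inside a 2-fold change in either direction for 32 of the 35 genes (91.4%, against 81.3% of all genes), the exceptions being Hk2, Pgls and Fbp2. It lay inside a 1.5-fold change for 11 of them (31.4%, against 21.5%), among them Gapdh, Pgk1, Pkm, Pfkl and Tpi1.

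**Figure D1:**
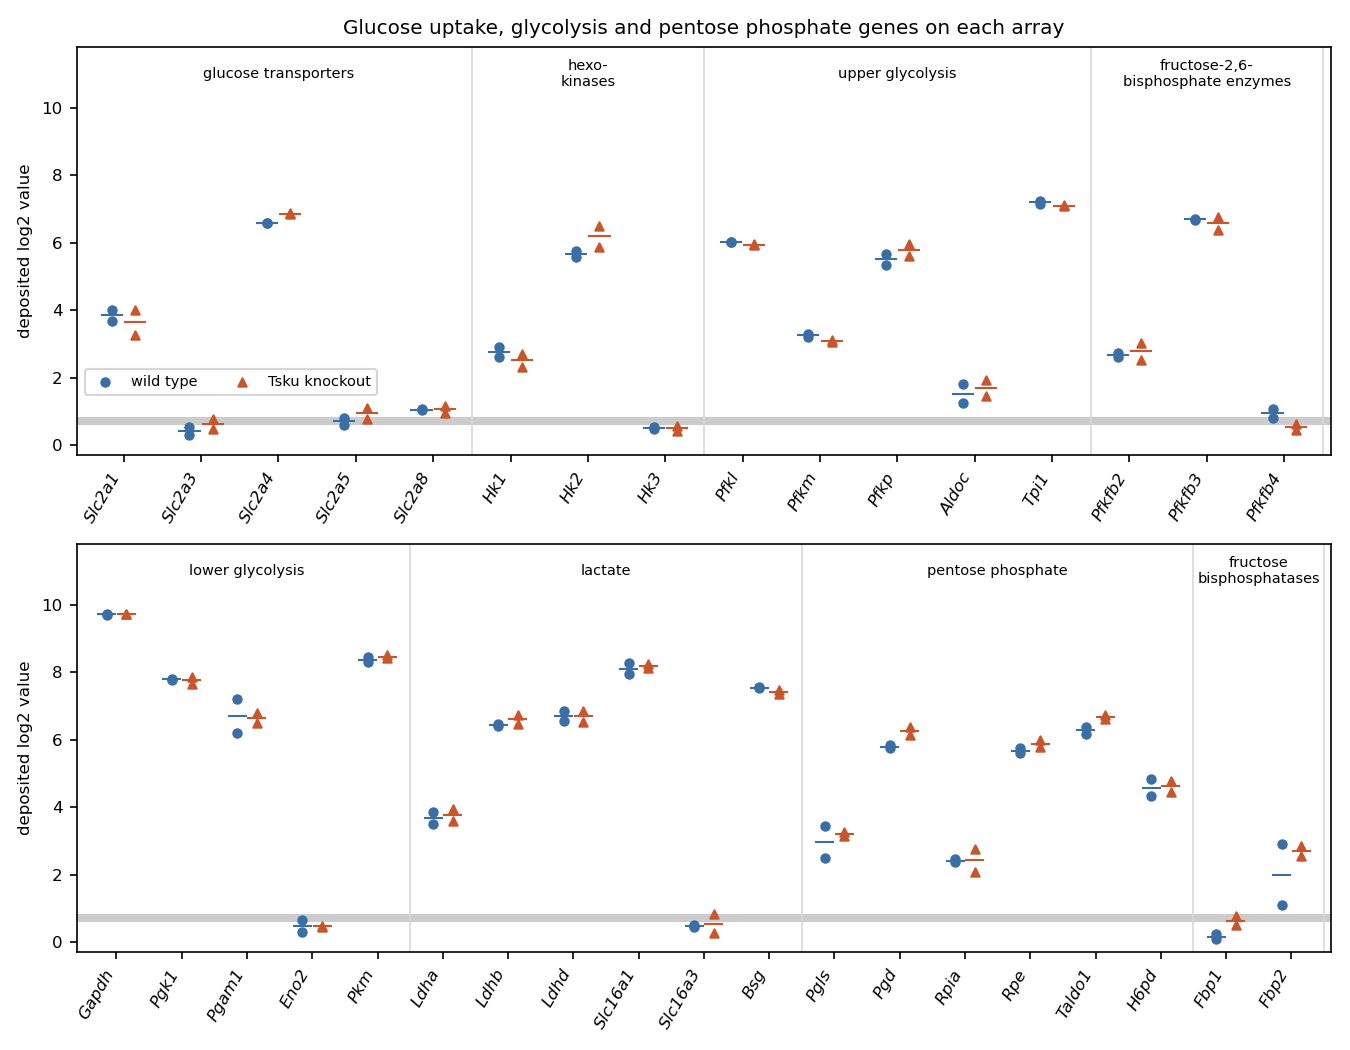
Deposited log2 value (vertical axis) of the 35 genes on each of the 4 arrays, grouped by role. Circles are wild-type and triangles knockout arrays, short lines are genotype means of 2 arrays, and the grey band spans the background level of the 4 arrays, 0.63 to 0.81. Hk2, Pgd and Taldo1 have both triangles above both circles, while Gapdh, Pgk1 and Pkm sit at the same height in both genotypes.

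The arrays also differed within a genotype. The gap between the 2 arrays of a genotype was larger than the difference between genotypes in 26 of the 35 genes (74.3%, against 77.4% of all genes). The genotypes did not overlap in 13 of the 35, 8 higher and 5 lower in the knockout, and over all genes they did not overlap in 35.2%, 19.4% higher and 15.8% lower. These shares are near those of the whole table. Olfactory and vomeronasal receptor genes, represented by 1405 probe sets, served to set a background level, the 95th percentile of their values on each array. Of the 35 genes 28 were above it on all 4 arrays and 1, Hk3, on none.

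The glucose transporters come first in the pathway. Slc2a4 encodes GLUT4, and it read 6.59 and 6.57 in wild type, against 6.87 and 6.86 in the knockout. The knockout arrays were both higher and each pair was tight, with a difference of 0.28 (SE 0.18, 95% interval -0.16 to 0.72, limma adjusted p = 0.895) or 1.21-fold. Slc2a1 encodes GLUT1 and read 3.69 and 4.02 in wild type, against 3.27 and 4.01 in the knockout, so the genotypes overlapped (difference -0.22, interval -0.94 to 0.50). Slc2a8, an intracellular hexose transporter, differed by 0.01 (-0.45 to 0.47). Slc2a3, the neuronal form GLUT3, was above background on 1 array and Slc2a5, the fructose transporter, on 3, with values from 0.30 to 1.10 between them. In all 4 of the 5 transporter genes were higher in the knockout, Slc2a8 by only 0.01, and none passed the test. On a list of 11 other transporter genes 3 were higher and 8 lower, with a median of -0.11. Of those 11 genes 2 were above background on all arrays.

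Among the hexokinases, Hk2 is the form that insulin induces in muscle and fat. It read 5.76 and 5.57 in wild type, against 6.51 and 5.89 in the knockout, so the genotypes did not overlap, but the knockout arrays lay 0.62 apart. The difference was 0.53 (SE 0.26, 95% interval -0.10 to 1.17, limma adjusted p = 0.872) or 1.45-fold. It was 0.84 without knockout replicate 2 and 0.22 without knockout replicate 1. Hk1, the widely expressed form, read 2.91 and 2.62 in wild type, against 2.33 and 2.70 in the knockout (difference -0.25, -0.80 to 0.30). Hk3, a form known from myeloid cells, was below background on every array.

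Short stretches of promoter are shown for the 3 genes above background on every array with the largest differences whose genotypes did not overlap, Hk2, Pgd and Taldo1, and for Ldha and Slc16a1, whose promoters hold the E-box CACGTG. The E-box is the sequence that the glucose sensor ChREBP binds with its partner Mlx, as do USF and Myc, and the carbohydrate response element is built from a spaced pair of E-boxes. Each sequence is the 250 bases before a transcription start in RefSeq on GRCm38.p6, written 5′ to 3′ on the strand of the gene, with every CACGTG in capitals. The stretches lie at chr6:82774455-82774704, minus strand, for Hk2, at chr4:149166706-149166955, minus strand, for Pgd, at chr7:141391910-141392159, plus strand, for Taldo1, at chr7:46845554-46845803, plus strand, for Ldha, and at chr3:104638414-104638663, plus strand, for Slc16a1. Pgd and Ldha have 2 starts listed each, and the start that the RefSeq table lists first is shown.
Hk2: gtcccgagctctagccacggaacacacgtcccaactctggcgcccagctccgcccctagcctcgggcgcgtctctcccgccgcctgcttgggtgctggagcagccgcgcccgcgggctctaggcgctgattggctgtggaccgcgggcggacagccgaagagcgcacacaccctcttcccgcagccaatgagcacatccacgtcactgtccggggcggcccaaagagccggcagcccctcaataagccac
Pgd: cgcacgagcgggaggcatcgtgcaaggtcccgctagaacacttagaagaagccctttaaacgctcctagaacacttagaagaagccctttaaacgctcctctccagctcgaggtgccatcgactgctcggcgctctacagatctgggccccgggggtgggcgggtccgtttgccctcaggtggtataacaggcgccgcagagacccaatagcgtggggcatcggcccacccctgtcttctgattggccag
Taldo1: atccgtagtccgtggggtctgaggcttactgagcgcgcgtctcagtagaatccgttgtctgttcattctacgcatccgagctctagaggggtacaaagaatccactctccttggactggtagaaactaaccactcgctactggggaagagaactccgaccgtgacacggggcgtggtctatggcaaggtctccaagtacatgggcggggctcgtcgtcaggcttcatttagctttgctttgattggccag
Ldha: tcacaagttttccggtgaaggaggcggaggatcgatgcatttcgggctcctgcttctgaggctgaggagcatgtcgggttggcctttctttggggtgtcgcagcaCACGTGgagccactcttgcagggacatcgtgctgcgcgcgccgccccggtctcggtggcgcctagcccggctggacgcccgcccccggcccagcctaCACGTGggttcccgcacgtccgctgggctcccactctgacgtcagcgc
Slc16a1: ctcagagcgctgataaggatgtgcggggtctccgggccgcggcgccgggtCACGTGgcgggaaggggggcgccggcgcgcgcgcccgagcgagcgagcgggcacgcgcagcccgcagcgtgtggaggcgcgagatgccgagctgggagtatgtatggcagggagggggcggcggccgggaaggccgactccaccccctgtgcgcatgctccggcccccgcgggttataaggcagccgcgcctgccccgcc
The Ldha stretch held CACGTG starting 145 and 48 bases before the start site and that of Slc16a1 held it 200 bases before. No CACGTG lay in the stretches of Hk2, Pgd and Taldo1. Of the 41 genes 38 had a promoter in the RefSeq table, and Slc2a3, Slc2a4 and Bsg had no entry. CACGTG, which reads the same on both strands, occurred in 7 of the 56 promoters of these genes (12.5%) and in 6.02% of all 32851 promoters of that length. Counted by gene, it occurred in 18.4% of the 38 genes, in 20% of 70 other genes of glucose metabolism with a promoter and in 6.86% of all genes. The 7 genes were Pfkm, Pfkfb2, Pfkfb3, Ldha, Ldhd, Slc16a1 and Fbp2, and their differences ran from -0.17 for Pfkm to 0.69 for Fbp2. The sterol element TCACNCCAC, a motif of the lipogenic factor SREBP, was searched on both strands and cannot contain CACGTG. It occurred in 3 of the 56 promoters (5.36%), those of Slc2a8, Aldoc and Pkm, and in 1.05% of all promoters. By gene, it occurred in 7.89% of the 38 genes, in 1 of the 70 other genes of glucose metabolism (1.43%) and in 1.22% of all genes. The differences of Slc2a8, Aldoc and Pkm were 0.01, 0.16 and 0.09. The matches are descriptions of letters in these windows and were not tested against the expression values.

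Of the steps from glucose 6-phosphate to triose phosphate, Gpi1 and Aldoa were not measured. The 5 measured genes differed by -0.17 to 0.27, with an interval that reached 0.84 for Aldoc. Tpi1, the triose phosphate isomerase, read 7.23 and 7.16 in wild type, against 7.09 and 7.11 in the knockout (difference -0.09, -0.53 to 0.35). Of the 3 subunit genes of phosphofructokinase, which makes the committing step, Pfkl differed by -0.08 (-0.52 to 0.36), Pfkm by -0.17 (-0.61 to 0.27) and Pfkp by 0.27 (-0.29 to 0.82). The genotypes did not overlap for Pfkl and Pfkm, both slightly lower in the knockout, and overlapped for Pfkp. Aldoc, an aldolase known from brain, differed by 0.16 (-0.52 to 0.84). None of these 5 genes passed the test.

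Pfkfb enzymes set the amount of fructose 2,6-bisphosphate, the activator of phosphofructokinase. Pfkfb3, a form with strong kinase activity, read 6.68 and 6.70 in wild type, against 6.39 and 6.76 in the knockout (difference -0.11, -0.62 to 0.40). Pfkfb2 differed by 0.11 (-0.46 to 0.68). Pfkfb4 read 0.80 and 1.09 in wild type, against 0.46 and 0.64 in the knockout, and both knockout arrays were below background. With the knockout arrays set to background the wild-type mean was 1.14-fold higher, a figure that takes no account of sampling error. The measured difference was -0.40 (-0.89 to 0.10, limma adjusted p = 0.873), and its interval includes no difference.

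The enzymes from glyceraldehyde 3-phosphate to pyruvate differed by a median of 0.03 in size, the smallest of the 8 roles. Gapdh read 9.70 and 9.72 in wild type, against 9.74 and 9.72 in the knockout, a difference of 0.02 (SE 0.18, 95% interval -0.42 to 0.46), and the sign turned to -0.06 after a repeated quantile normalization. Pgk1, the kinase that makes the first ATP of the pathway, differed by -0.03 (-0.49 to 0.43). Pkm, the pyruvate kinase of most tissues outside liver, differed by 0.09 (-0.36 to 0.54). Eno2, the neuronal enolase, was above background on 1 array. Several genes of this group have processed copies elsewhere in the genome, so their probe sets may also read such copies.

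Pgam1, the phosphoglycerate mutase, depended on which of its probe sets was read, and it is singled out after its values were seen. The kept probe set read 7.20 and 6.18 in wild type, against 6.48 and 6.78 in the knockout, a difference of -0.06 (-0.93 to 0.81). The wild-type arrays lay 1.02 apart and spanned both knockout arrays. The other probe set read 3.26 and 3.49 in wild type, against 4.32 and 4.31 in the knockout, a difference of 0.94 with no overlap. With the most variable probe set of each gene in the fit, that value had an unadjusted p of 0.00282 and a limma adjusted p of 0.870. The adjusted p of Pgam1 over all alternatives ran from 0.870 to 0.999. Which of the probe sets follows the Pgam1 transcript was not tested. The other probe sets of Gapdh differed by 0.05 and 0.03, that of Pgls by 0.56 and that of Slc2a1 by -0.26.

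**Figure D2:**
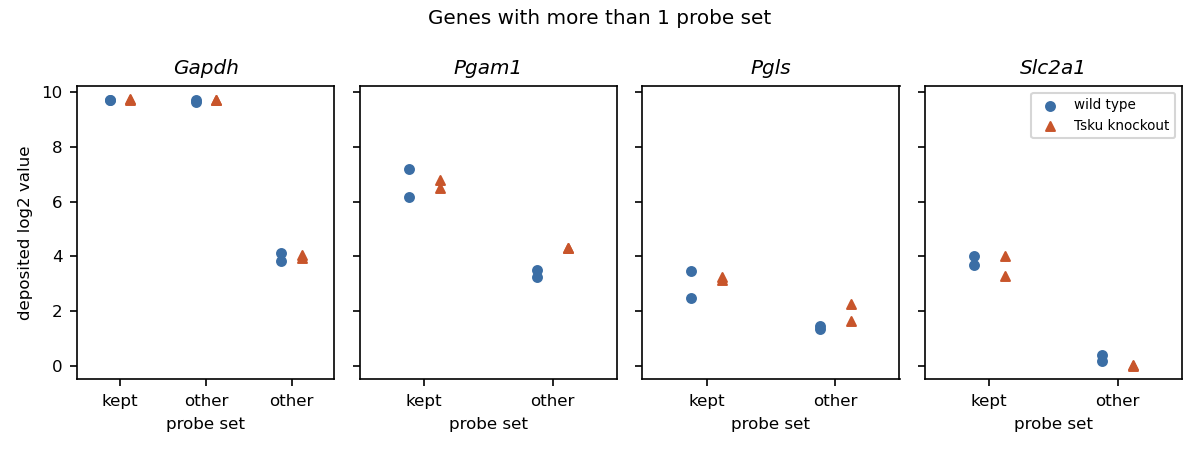
Deposited log2 value (vertical axis) on each array for every probe set of the 4 genes that have more than 1, with circles for wild-type and triangles for knockout arrays. The probe sets of Gapdh show the same level in both genotypes, while the kept probe set of Pgam1 overlaps between genotypes and its other probe set lies at 3.26 and 3.49 in wild type against 4.32 and 4.31 in the knockout.

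The genes of lactate handling overlapped between genotypes in 4 of 6 cases. Over all genes 35.2% did not overlap, so this count is near the share of the whole table. Slc16a1 encodes MCT1, which carries lactate and pyruvate across the plasma membrane, and read 8.26 and 7.94 in wild type, against 8.11 and 8.23 in the knockout (difference 0.08, -0.42 to 0.58). Bsg, the chaperone that brings MCT1 to the membrane, differed by -0.13 (-0.58 to 0.31). Slc16a3, the export form MCT4, was above background on 1 array. Ldha and Ldhb encode the subunits of lactate dehydrogenase. Ldha read 3.87 and 3.50 in wild type, against 3.59 and 3.94 in the knockout (difference 0.08, -0.49 to 0.64), and Ldhb differed by 0.17 (-0.31 to 0.64). Ldhd, the mitochondrial dehydrogenase of D-lactate, differed by -0.01 (-0.54 to 0.53).

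Of the pentose phosphate pathway, G6pdx and Tkt were not measured. All 6 measured genes had a difference above 0, from 0.01 to 0.46 with a median of 0.22, and none passed the test. Over all genes 52.6% were higher. Of 7 further genes on branches of the pathway 4 were higher and 3 lower in the knockout. Pgd, the 6-phosphogluconate dehydrogenase of the NADPH-making branch, read 5.83 and 5.76 in wild type, against 6.36 and 6.15 in the knockout. Both knockout arrays were higher, by 0.46 on average (SE 0.19, 95% interval -0.005 to 0.92, limma adjusted p = 0.872) or 1.38-fold. Its unadjusted p of 0.0518 was the smallest of the 35 genes. Taldo1, the transaldolase of the branch that returns sugars to glycolysis, read 6.38 and 6.16 in wild type, against 6.74 and 6.60 in the knockout. Again both knockout arrays were higher, with a difference of 0.40 (SE 0.19, -0.07 to 0.87, limma adjusted p = 0.872) or 1.32-fold. Without single arrays the difference of Pgd ran from 0.36 to 0.56 and that of Taldo1 from 0.29 to 0.51.

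Of the other genes of the pathway, Rpe, the ribulose phosphate epimerase, read 5.74 and 5.60 in wild type, against 5.99 and 5.77 in the knockout (difference 0.21, -0.27 to 0.68), with no overlap and a range of 0.10 to 0.32 without single arrays. Pgls, Rpia and H6pd changed sign without at least 1 array. Pgls, the lactonase after the first oxidation, read 3.45 and 2.49 in wild type, a gap of 0.97 that held both knockout arrays at 3.26 and 3.14 (difference 0.23, -0.59 to 1.05). Rpia, the ribose phosphate isomerase, differed by 0.01 (-0.65 to 0.66) and H6pd, the form of the oxidative branch in the endoplasmic reticulum, by 0.04 (-0.56 to 0.65). Without single arrays the difference of Pgls ran from -0.26 to 0.71, that of Rpia from -0.33 to 0.34 and that of H6pd from -0.20 to 0.29. The median over the 6 genes stayed above 0 in all 14 alternatives, from 0.21 to 0.39. Only the choice of probe set, normalization and leaving out single arrays could change it. The other alternatives left these 6 genes and their differences as they were.

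**Figure D3:**
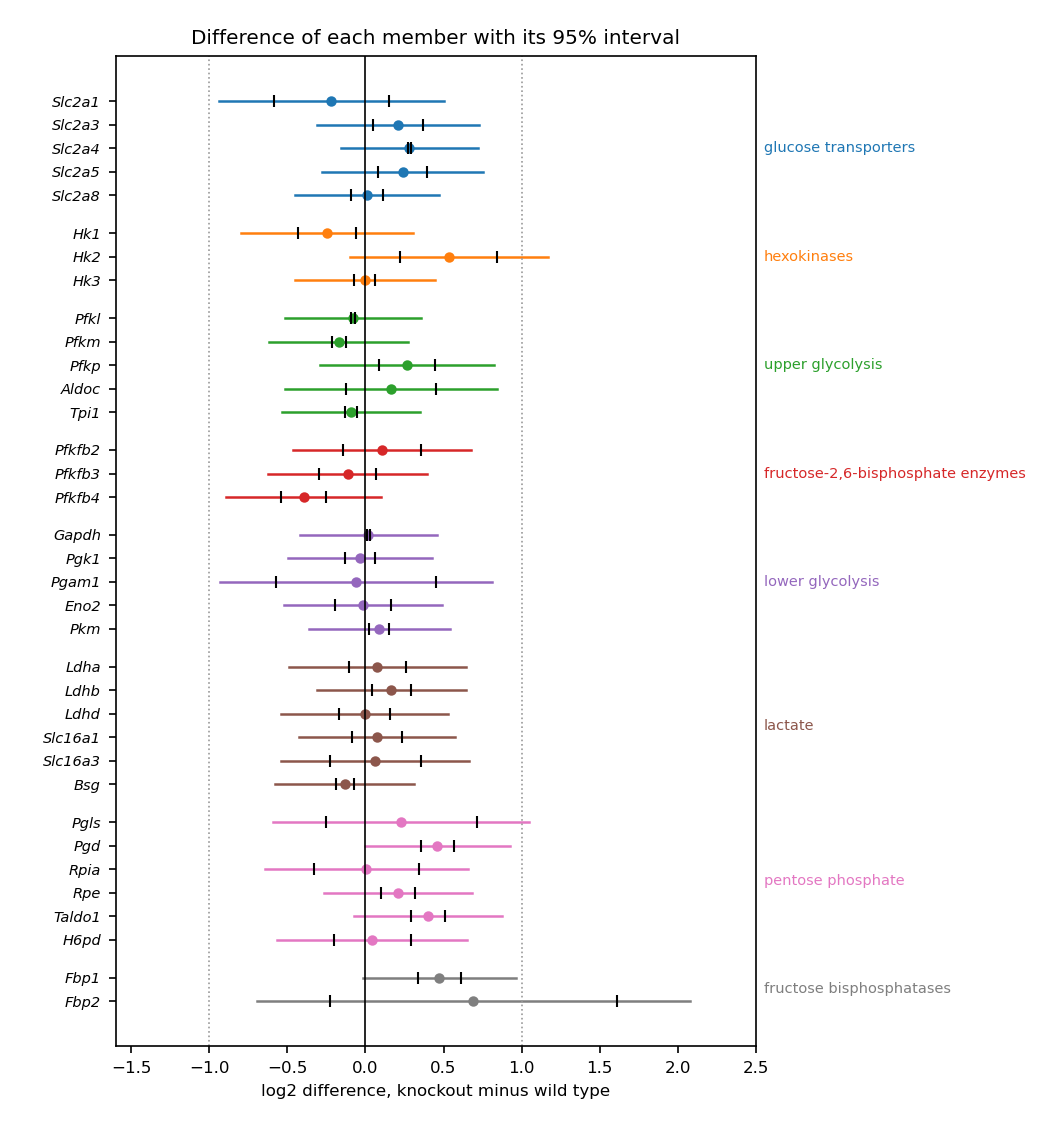
Log2 difference, knockout minus wild type (horizontal axis), of the 35 genes with its 95% interval from limma (coloured line) by role. Black ticks mark the lowest and highest difference after leaving out single arrays, and dotted lines mark a 2-fold change. All 35 intervals cross 0, that of Pgd most narrowly with a lower end of -0.005, and Fbp2 has the widest, from -0.70 to 2.08.

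The fructose bisphosphatases run the phosphofructokinase step backwards. Fbp2, the muscle form, read 2.92 and 1.09 in wild type, against 2.84 and 2.54 in the knockout, so wild-type replicate 2 was low and the other 3 arrays lay between 2.54 and 2.92. The difference was 0.69 (SE 0.57, 95% interval -0.70 to 2.08, limma adjusted p = 0.901). It was 1.61 without wild-type replicate 1 (limma adjusted p = 0.166) and turned to -0.22 without wild-type replicate 2. Over its alternatives the adjusted p ran from 0.166 to 0.999. Fbp1, the form of liver and kidney, read 0.24 and 0.09 in wild type, against 0.50 and 0.77 in the knockout, with 1 array of the 4 above background, so no fold is given.

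Markers of brown adipocytes and of other cells were read on the same arrays, and none passed an adjusted p of 0.05 in limma. Of the 12 brown adipocyte genes 11, Ucp1 among them, were above background on all arrays. Those genes were higher in the knockout in 11 of 12 (median 0.36), 4 of them at an unadjusted p under 0.05, and their summed linear signal was 2286 and 2112 in wild type, against 2661 and 2747 in the knockout. Ucp1, the uncoupling protein of brown fat, differed by 0.55 (limma adjusted p = 0.872) and Dio2, an activator of thyroid hormone, by 2.03 (limma adjusted p = 0.736). White adipocyte markers were also above background on all arrays in 6 of 9, with 5 higher and 4 lower in the knockout (median 0.03). Those with an unadjusted p under 0.05 in limma were Agt at 1.08, Nnat at -1.01 and Npr3 at -1.24. Each had a limma adjusted p of 0.872. All 24 skeletal muscle markers were lower in the knockout (median -1.50), none of them below background on every array, and their sum was 446 and 654 in wild type, against 328 and 151 in the knockout. Macrophage markers were lower in 14 of 15 (median -0.41), summing to 286 and 303 in wild type, against 169 and 301 in the knockout. Liver markers were higher in 14 of 15 (median 0.35), summing to 330 and 379 in wild type, against 473 and 345 in the knockout. Most of that sum was Cyp2e1, which differed by 0.06, and the other 14 markers summed to 40.5 and 30.3 in wild type, against 100.2 and 50.5 in the knockout. Of the 15 liver markers 7 were above background on all arrays, and Fgg on none. In bulk tissue fewer cells of a type and less RNA per cell cannot be told apart.

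The muscle markers had a median of -1.50, and Pfkm, the muscle subunit of phosphofructokinase, differed by -0.17 and Fbp2 by 0.69. On wild-type replicate 2, where Fbp2 was lowest, the muscle markers were at their highest, with a median of 1.22 above the mean of each gene. Eno3, the muscle enolase and not among the 41 genes, read 4.00 and 4.15 in wild type, against 4.06 and 2.58 in the knockout. Its low array, knockout replicate 2, also had the lowest muscle signal. Pgam2, another muscle isoform outside the 41 genes, was higher in the knockout. It read 0.86 and 0.23 in wild type, against 1.42 and 0.35 in the knockout (difference 0.34), and was above background on 2 arrays. Hk3 was below background on every array, and all 15 macrophage markers were above it on every array. The adipocyte markers, among them Adipoq and Plin1, had a median of 0.10, with sums of 4903 and 4918 in wild type, against 5173 and 5290 in the knockout. The part of these cell types and of the brown adipocyte genes in the differences of Hk2, Pgd and Taldo1 was not tested. Nor was it tested for Pfkm, Fbp2, Eno3, Pgam2 or Hk3.

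**Figure D4:**
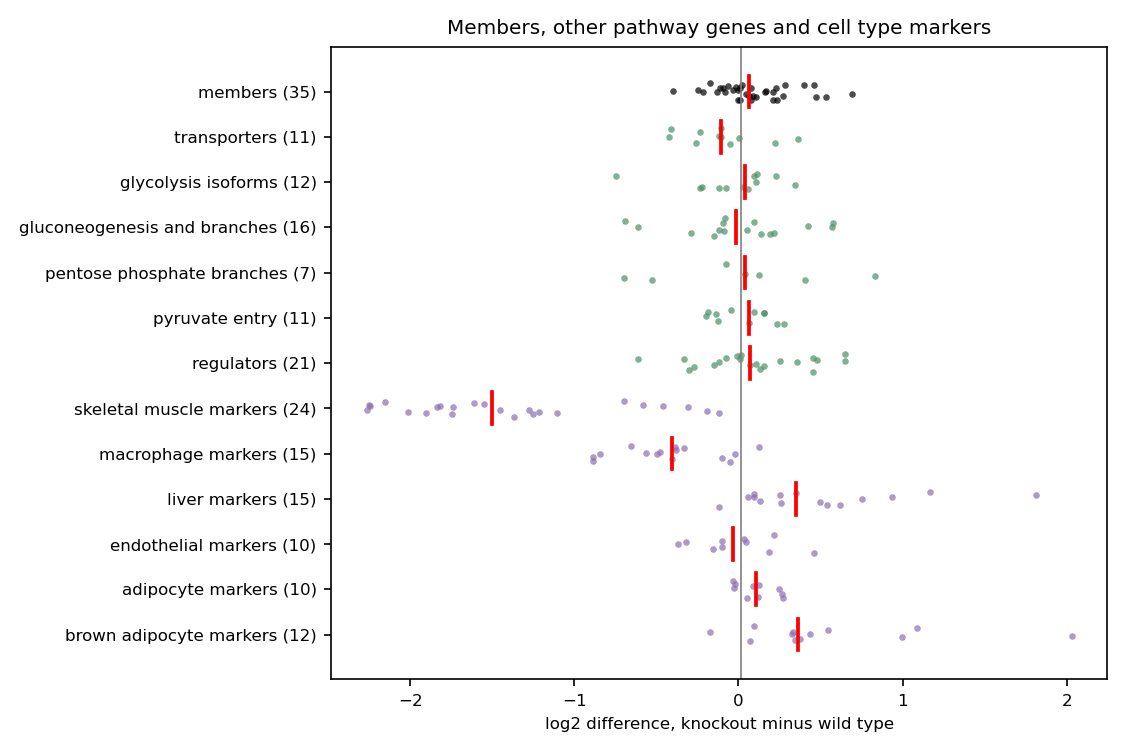
Log2 difference, knockout minus wild type (horizontal axis), of each gene (points) in the 35 described genes, in other genes of glucose metabolism and in cell type markers, with the number of genes in brackets. Red bars are medians and the grey line is the median of all 22180 genes, 0.02. The 35 genes lie between -0.40 and 0.69, and the skeletal muscle markers lie furthest from the grey line, at a median of -1.50.

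A list of 85 further genes of glucose metabolism, of which 78 were measured, had 41 higher and 37 lower in the knockout and a median difference of 0.01. None passed an adjusted p of 0.05. At an unadjusted p under 0.05 there were 5 higher and 2 lower, against 2.89% and 2.67% of all genes. Regulators gave 2 of the 5. Srebf1, which encodes the lipogenic factor SREBP-1, read 4.50 and 4.77 in wild type, against 5.36 and 5.20 in the knockout (difference 0.65, SE 0.20, limma adjusted p = 0.872). Mlx, the binding partner of ChREBP, read 4.12 and 3.74 in wild type, against 4.69 and 4.47 in the knockout (difference 0.65, SE 0.22, limma adjusted p = 0.872). Both knockout arrays were above both wild-type arrays for each of these genes. Mlxipl, which encodes ChREBP itself, differed by 0.25 (-0.19 to 0.69). Mlxip, another regulator on the list, went the other way at -0.33 (-0.79 to 0.12), with both knockout arrays lower. Of the 21 regulators measured 13 were higher and 8 lower in the knockout.

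The other 5 were enzymes of side branches. Pcx, pyruvate carboxylase, read 6.17 and 6.32 in wild type, against 6.98 and 6.67 in the knockout (difference 0.57). Khk, ketohexokinase, which starts fructose breakdown, read 2.76 and 2.43 in wild type, against 3.03 and 3.30 in the knockout (difference 0.57). Dera, which splits deoxyribose phosphate, read 3.56 and 2.63 in wild type, against 3.80 and 4.05 in the knockout (difference 0.83). Gfpt2, which opens the hexosamine pathway, was lower, at 2.42 and 2.82 in wild type, against 1.78 and 2.08 in the knockout (difference -0.69). Prps2, which turns ribose 5-phosphate into the precursor of nucleotides, read 1.74 and 2.18 in wild type, against 0.97 and 1.55 in the knockout (difference -0.70). The genotypes did not overlap for any of these 5 genes. Like Srebf1 and Mlx, they were chosen by their unadjusted p on the same arrays, so the lack of overlap adds little. All 5 had a limma adjusted p of 0.872. The genes of pyruvate entry into mitochondria, 11 of them measured, lay between -0.20 and 0.28 with a median of 0.06, and the other glycolysis isoforms, 12 measured, had a median of 0.04.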

How the data were processed

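Total RNA, 400 ng per sample, was labelled with biotin and hybridised to whole-transcript arrays, per the labels' protocols. The authors deposited normalized log2 values for 41345 probe sets on 4 arrays. The submitters' processing notes name RMA, oligo and limma without roles; versions and a genome build are not given in the sources used here. Base 2 was assumed, as RMA gives it. Array medians of 0.56 to 0.58 are lower than RMA usually gives, for an unknown reason; a constant offset would leave differences unchanged.

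Probe sets with 1 gene symbol in the platform annotation (23521) were kept, and the highest-mean probe set per gene gave 22180 genes. Genotypes were compared with limma 3.58.1 (R 4.3.3), lmFit and eBayes, two-sided, with Benjamini-Hochberg adjustment over all genes. Residual degrees of freedom were 2. The number of arrays limits the precision, with a median half-width of the 95% interval of 0.51 over the 35 genes. The scripts were tested on simulated data. Summed linear signals are sums of 2 to the power of the log2 values, in arbitrary units.

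Values on all arrays were given for genes with an unadjusted p under 0.05, for genes whose genotypes do not overlap with a difference of at least 0.3 in size, and for the highest-signal gene of each role. Further pathway genes were named at an unadjusted p under 0.05, with ChREBP's gene Mlxipl and the regulator Mlxip beside them. Pgam1, Pgls, Slc2a1, Hk1, Ldha, Rpe, Eno3 and Pgam2 were given in full after their values were seen. The members, lists and background level were chosen with earlier results of these data known. Alternatives were the replicate number as a block, 2 filters for dim genes, the choice of probe set, normalization, the variance model and leaving out single arrays.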

Additional observations from a re-analysis of the deposited data

How the results depend on the processing

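None of the 35 genes passed an adjusted p of 0.05 in any of the 14 alternatives that tested it; with genes at or above the median mean 30 of them were tested, without Slc2a3, Hk3, Eno2, Slc16a3 and Fbp1. The count of all genes past it was 1 with the replicate block and 1 when the prior variance followed the mean (mean trend), and ran from 0 to 15 without single arrays, the 15 arising without wild-type replicate 1, while leaving out wild-type replicate 2 gave 2. Of the 35 genes, those with an unadjusted p under 0.05 numbered 1 with the mean of probe sets (Pgd), 1 with the most variable probe set (Pgam1) and 3 with the mean trend (Hk2, Pgd and Taldo1). Without single arrays they numbered 0 to 2, namely Pgls and Fbp2 without wild-type replicate 1, Fbp1 without knockout replicate 1 and Hk2 without knockout replicate 2. The median difference ran from -0.0071 to 0.11 without single arrays, and the number of genes higher in the knockout from 17 to 25. Between 5 and 7 genes changed sign without an array, and at most 1 did under another alternative. A fit without an array leaves 1 sample in a genotype, assumed to vary like the other genotype. The labels do not say that equal replicate numbers share anything, and deviations of same-numbered arrays correlated at -0.07 across genes. With the replicate block the smallest adjusted p of the 35 genes was 0.942. The 22 genes higher in the knockout stayed the same, since the block cannot change a difference in this design. At the adjusted threshold 4 arrays left every difference uncalled, from -3.39 to 3.65 over all genes. Among them was that of 2.03 in Dio2 (limma adjusted p = 0.736).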
